A study of Saccharomyces cerevisiae with 3 samples.

Results

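The stretch described here is the middle of the 18S rRNA sequence within the 35S rDNA gene of *S. cerevisiae*, taken by position as the 600 nucleotides after 35S position 1300, up to 1900, which gave 600 of the 6858 positions in the deposited table. Positions are counted from the start of the 35S transcript, so these are nucleotides 601 to 1200 of 18S. On assembly R64 the stretch lies on chromosome XII from 465670 to 466269 on the minus strand, inside the rRNA gene *RDN18-2* (chromosome XII, 465070 to 466869), which is part of *RDN37-2*. All of its positions are labelled 18S, a mature rRNA and not a spacer. The assembly holds a further copy, *RDN18-1*, and how reads were assigned between the copies is not given in the sources used here.

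Occupancy of RNA polymerase I (Pol I) was measured by native elongating transcript sequencing (NET-seq) in 3 *hmo1Δ* replicates, each from a culture of its own grown at 30 °C, and set beside wild type (WT). Both strains carried *RPA135*, a Pol I subunit gene, with His and HA tags marked by *TRP1*, and the mutant also carried *hmo1Δ::URA4*. The single WT libraries of the deposited table belong to another series and were not used. WT enters through the authors' median, coefficient of variation and interval, and no test between the strains was run. *HMO1* lies outside the measured gene, so its loss could not be checked in these files. A difference between strains and one between the series of libraries cannot be told apart.

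Pol I makes the 35S precursor, from which 18S, 5.8S and 25S rRNA are cut. Hmo1 is a high mobility group box protein of budding yeast that is abundant on actively transcribed rDNA. In NET-seq the 3′ end of each RNA bound to Pol I marks where the polymerase stood, so a high value means that polymerases were often found at that nucleotide, and the method has no time variable. The middle of 18S encodes most of the central domain of the rRNA, which forms the platform of the small ribosomal subunit and carries the long expansion segment ES6, and it ends in the start of the 3′ major domain, which forms the head. Pol I NET-seq libraries also hold mature rRNA, and within 18S the 3′ ends of mature rRNA fragments cannot be told apart from those of nascent RNA. Occupancy is given in RPM, for which each library was divided by its own sum as far as the terminator T1 (position 6739) and multiplied by 1000000.

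The sequences below are those at which the results turn. They are written as RNA from the deposited base column, from 20 nucleotides before to 10 after the named position, which is the capital letter. The first set holds the highest peaks of *hmo1Δ* (1692, 1378 and 1658) and the highest peaks of WT (1631, 1321, 1503 and 1690), and the second holds the highest and lowest ratios to WT.
Position 1692, chrXII:465868-465898: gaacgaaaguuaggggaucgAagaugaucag
Position 1378, chrXII:466182-466212: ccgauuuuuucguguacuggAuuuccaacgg
Position 1658, chrXII:465902-465932: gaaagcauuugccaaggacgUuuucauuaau
Position 1631, chrXII:465929-465959: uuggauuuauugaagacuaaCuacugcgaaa
Position 1321, chrXII:466239-466269: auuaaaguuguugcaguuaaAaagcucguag
Position 1503, chrXII:466057-466087: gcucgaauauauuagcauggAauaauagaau
Position 1690, chrXII:465870-465900: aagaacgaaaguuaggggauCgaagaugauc
Position 1774, chrXII:465786-465816: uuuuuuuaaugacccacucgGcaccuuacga
Position 1747, chrXII:465813-465843: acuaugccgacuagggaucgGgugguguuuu
Position 1424, chrXII:466136-466166: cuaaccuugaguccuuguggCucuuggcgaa
Position 1499, chrXII:466061-466091: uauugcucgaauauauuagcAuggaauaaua
Position 1563, chrXII:465997-466027: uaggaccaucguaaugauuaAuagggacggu
Position 1850, chrXII:465710-465740: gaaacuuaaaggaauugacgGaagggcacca

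The stretch held 352296.5, 187429 and 264098.5 reads in *hmo1Δ* replicates 1, 2 and 3, recovered from the step between low RPM values that 1 read is worth. The median position held 446.5, 238.5 and 328 reads, for counting errors of 4.73%, 6.48% and 5.52%, and no position had fewer than 24 reads in any replicate. At the typical position the *hmo1Δ* replicates had a coefficient of variation of 9.999% (the median), and the authors' coefficient for WT had a median of 9.15%. Chi-square per degree of freedom was 5.92, 5.57 and 7.44 for the pairs of replicates, so the spread between them was wider than counting noise alone, for which it would be near 1. The Spearman coefficient over the 600 positions was 0.968 for replicate 1 with 2, 0.980 for 1 with 3 and 0.961 for 2 with 3. With the WT median it was 0.834, 0.755 and 0.855 for replicates 1, 2 and 3. The order of positions thus differed more between each replicate and WT than between replicates, and replicate 2, the shallowest library, was farthest from WT. Replicate 2 was the highest or lowest of the replicates at 75.2% of positions, against 59.3% for replicate 1 and 65.5% for replicate 3. Neighbouring positions are not independent, so these coefficients are descriptions.

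Summed occupancy was lower in *hmo1Δ*. The stretch held 95206, 94456 and 93976 RPM in *hmo1Δ* replicates 1, 2 and 3, against 108488 RPM in the authors' WT median. All replicates lay below WT, much closer to each other than to WT. The log2 ratio of *hmo1Δ* to WT was -0.20 ± 0.01 (SD, n = 3), a change of -12.9%. Its share of the occupancy up to T1 was 9.45% ± 0.062 (SD, n = 3) in *hmo1Δ* and 10.9% in WT. The size depends on the scaling. With each profile scaled to its own 18S total the log2 ratio was -0.045 ± 0.009 (SD, n = 3), and with each scaled to the median position of the gene it was -0.35 ± 0.03, below 0 in 3 of 3 replicates in both. These scalings put the median log2 ratio over all positions of the gene at 0.20 and -0.09, against 0.05 as deposited.

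As deposited, the neighbouring parts of 18S had the same direction. The log2 ratio was -0.18 ± 0.01 (SD, n = 3) over the 600 positions of 18S before the stretch and -0.06 ± 0.04 over the 600 after it. As a share of 18S the direction turned for the last of these. The part before the stretch held 37.2% of 18S in *hmo1Δ* and 37.8% in WT, the stretch 34.3% and 35.3%, and the part after it 28.6% ± 0.74 (SD, n = 3) in *hmo1Δ* and 26.8% in WT. The log2 ratio of the middle was lower than that of the last part in 3 of 3 replicates, with a difference of -0.13 ± 0.05 (SD, n = 3) on the log2 scale, and lower than the first part also in 3 of 3, by only -0.02 ± 0.01. An exact 2-sided sign permutation over 3 replicates cannot give a *p*-value under 0.25, so neither difference was tested.

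At single positions the change went both ways. All 3 *hmo1Δ* replicates were below the authors' WT median at 324 of the 600 positions (54.0%), where over the whole gene the share was 37.2%. All 3 were above it at 188 positions (31.3%), against 44.2% over the gene, and at 88 positions the replicates lay on both sides. With each profile scaled to its 18S total, 269 positions (44.8%) were below, where over the gene 27.5% were, and 237 (39.5%) were above, where over the gene 53.97% were, so the share of calls that were above was 46.8%, against 36.7% as deposited. Scaled to the total of the stretch itself, which makes the sums equal, 247 positions were below and 248 above. Shares over the gene under that scaling are not given here. A stricter rule, chosen after seeing the data, asked that all 3 replicates lie outside the interval the authors give around the WT mean, which is 2 standard errors to either side. By it 261 positions (43.5%) were below, against 26.4% over the gene, and 150 positions (25%) were above, against 35.1%. Changes in the *hmo1Δ* median of at least 2-fold with all replicates on that side were more often upward. They comprised 53 positions above WT (8.83%, 15.3% over the gene) and 37 positions below it (6.17%, 2.83% over the gene). In RPM, the 233 positions with the higher *hmo1Δ* median added 12633 and the 367 with the lower one added -26244, a net of -13611. The 10 largest decreases made up 15.4% of the RPM lost and the 10 largest increases 23.2% of the RPM gained, so both were spread over many positions.

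**Figure D1:**
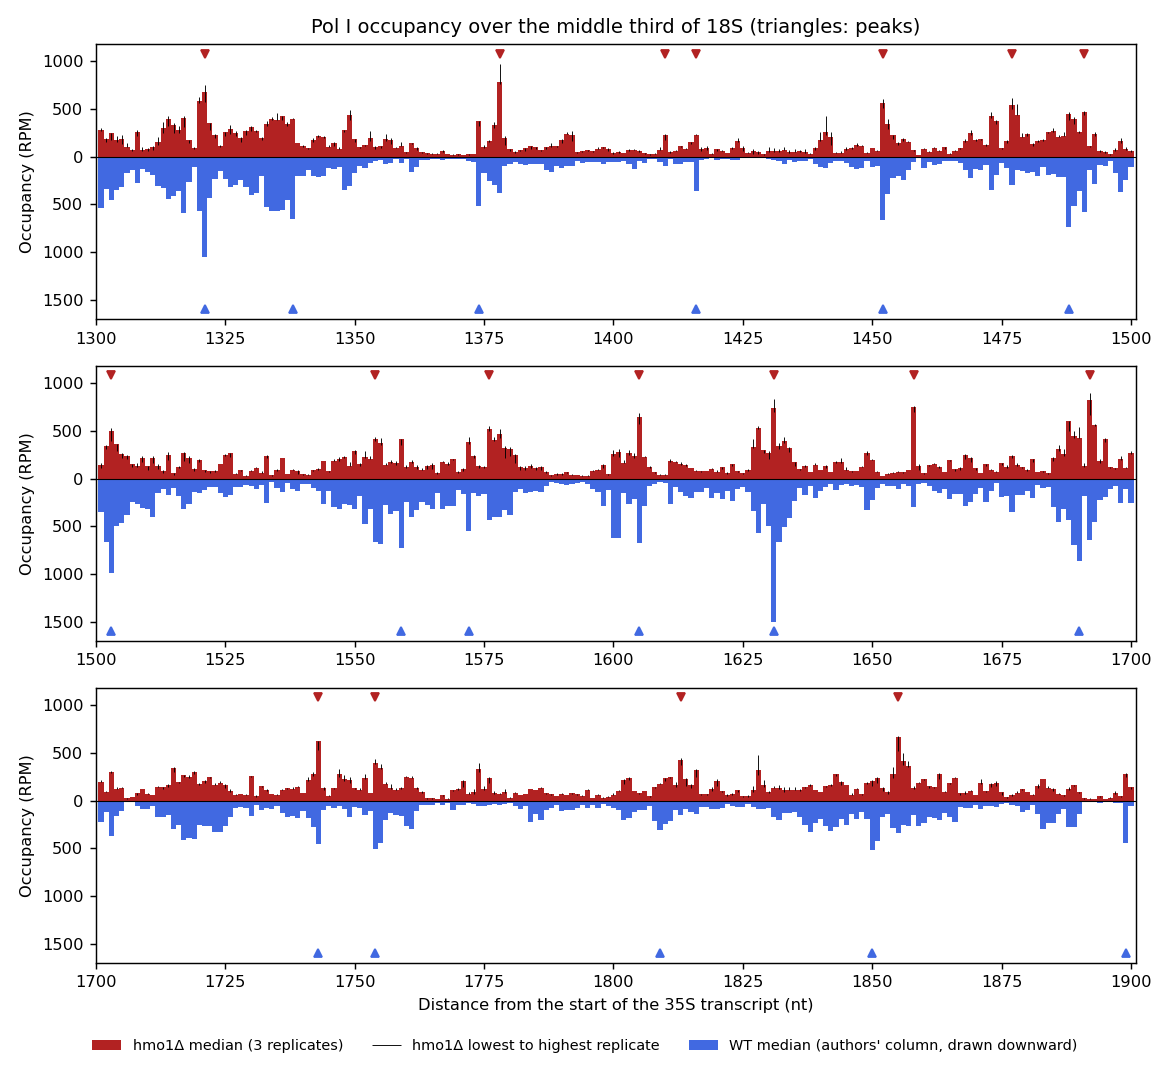
Occupancy (RPM) at each of the 600 positions against distance from the start of the 35S transcript, in 3 panels of 200 positions, with the *hmo1Δ* median upward (black lines run from the lowest to the highest of 3 replicates) and the authors' WT median downward; triangles mark peaks. The highest WT value is 1500 RPM at position 1631, where the *hmo1Δ* median is 745 RPM, and the highest *hmo1Δ* median is 820 RPM at position 1692.

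The profile of *hmo1Δ* was flatter than that of WT. Occupancy ranged from 16.8 to 777 RPM in *hmo1Δ* replicate 1, from 12.1 to 971 RPM in replicate 2 and from 14.2 to 899 RPM in replicate 3, against 9.30 to 1500 RPM in the authors' WT median. At 500 RPM or more there were 14, 17 and 17 positions in *hmo1Δ* replicates 1, 2 and 3, and 32 in WT. Under 20 RPM there were 5, 6 and 10 positions in the replicates, and 15 in WT. The 30 highest positions held 16.2%, 17.5% and 17.98% of the stretch in *hmo1Δ* and 18.7% in WT. The Gini coefficient, which is 0 when all positions are equal, was 0.385, 0.397 and 0.415 in the replicates and 0.445 in WT, so every replicate was less concentrated than WT. This was not particular to the stretch. For the medians of *hmo1Δ* and WT it was 0.462 and 0.521 over the gene up to T1. In the parts of 18S before and after the stretch it was 0.422 and 0.445, and 0.401 and 0.482. Ranked by the mean of both strains' medians, the lowest 150 positions had a median log2 ratio of 0.08 and the highest 150 had -0.37. Of those highest, 108 (72%) had all 3 replicates below WT and 27 (18%) had all 3 above. Over the stretch the shares were 54.0% and 31.3%, and over the gene 37.2% and 44.2%. Shares for positions of like rank over the gene are not given here. Ranked by the *hmo1Δ* median alone, the 4 groups of 150 had median log2 ratios of -0.17, -0.16, -0.28 and -0.13 from low to high, without such a trend.

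**Figure D2:**
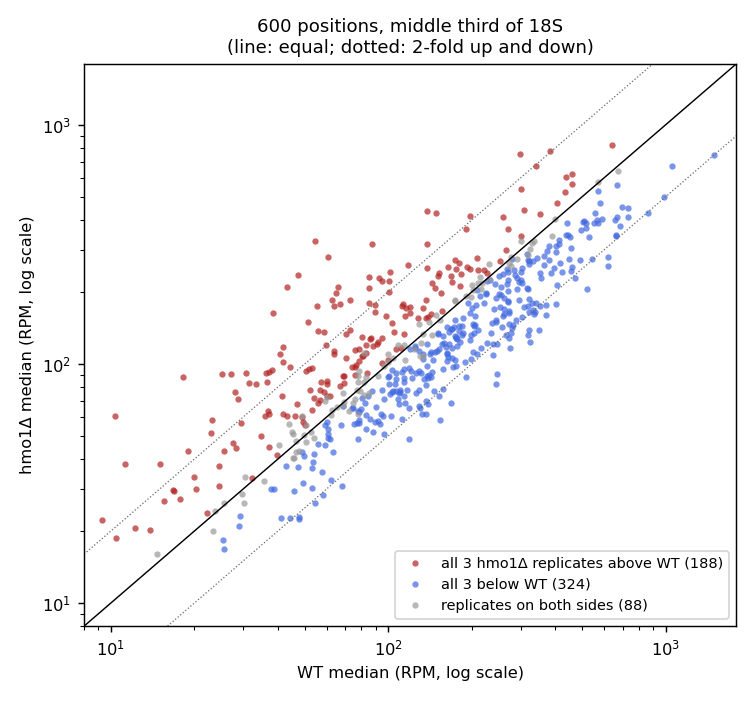
The *hmo1Δ* median against the authors' WT median (both RPM, log scales) for the 600 positions, coloured by whether all 3 *hmo1Δ* replicates lie above WT (188), below it (324) or on both sides (88); the solid line marks equal values and the dotted lines 2-fold differences. Points above the line crowd at low WT values and points below it at high ones, which sorting by WT favours. Ranked by the *hmo1Δ* median, no such trend was seen.

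A peak was called where a position was the highest within 5 positions on either side and at least 3 times the local median, taken over 50 positions to either side. There were 18 peaks in the *hmo1Δ* median and 17 in the WT median, and 9 coincided within 2 positions, which is 50% of the *hmo1Δ* peaks and 52.9% of the WT peaks. Over the whole gene 65.1% of 269 *hmo1Δ* peaks and 62.5% of 280 WT peaks coincided. The count depends on the peak rule, since with peaks highest within only 3 positions 15 coincided, of 23 in *hmo1Δ* and 20 in WT. At 15 of the 17 WT peaks all 3 *hmo1Δ* replicates were below WT, as they were at 169 of 280 over the gene, and peaks called in WT are by their choice high in WT. At the 18 *hmo1Δ* peaks, which are likewise chosen high in *hmo1Δ*, the replicates were above WT at 9 and below it at 8, while over the gene they were above at 156 of 269 and below at 80. The median spacing of peaks was 29 positions in *hmo1Δ* and 36 in WT.

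Among the 5 highest *hmo1Δ* peaks, the first 3 were higher than WT, while those at 1631 and 1321 were lower. The choice of these peaks favours values high in *hmo1Δ*. Position 1692 had 668, 820 and 899 RPM in *hmo1Δ* replicates 1, 2 and 3, against a WT median of 641 RPM. Replicate 1 lay closest to WT, within the authors' WT interval of 576 to 674 RPM, so this peak did not separate from WT by the stricter rule, and with scaling to the median position of the gene its replicates fell on both sides. Position 1378 had 777, 971 and 763 RPM in *hmo1Δ*, against 383 RPM in WT, a fold of 2.03. Position 1658 had 694, 752 and 756 RPM in *hmo1Δ*, against 299 RPM in WT, a fold of 2.52. The replicates at 1658 were close to each other and far from WT, and no WT peak was called between 1631 and 1690. The nucleotide just before it, 1657, had 92.4, 90.2 and 89.7 RPM in *hmo1Δ* and 76.0 RPM in WT, a fold of 1.19, while the nucleotide after it, 1659, was at 2.32 times WT.

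The 5 highest WT peaks, a choice that favours values high in WT, were lower in *hmo1Δ*. Position 1631, the highest of the stretch in WT, had 745, 694 and 837 RPM in *hmo1Δ*, against 1500 RPM in WT. Position 1321 had 674, 577 and 750 RPM in *hmo1Δ*, against 1054 RPM in WT. Position 1503 had 499, 391 and 528 RPM in *hmo1Δ*, against 986 RPM in WT. At each of these the *hmo1Δ* replicates lay below the WT interval, although 1631 and 1321 remained among the 5 highest peaks of *hmo1Δ*. Position 1690 had 427, 428 and 537 RPM in *hmo1Δ* and 860 RPM in WT, and position 1488 had 380, 467 and 450 RPM in *hmo1Δ* and 733 RPM in WT. Position 1690 lies 2 nucleotides before 1692, the highest *hmo1Δ* peak, so the order of these neighbours was inverted between strains in every replicate.

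Other called peaks of the strains also lay a few nucleotides apart. A peak had to be the highest within 5 positions, so of 2 such neighbours only the higher was called in each strain. Of the 18 *hmo1Δ* peaks, 15 were paired with a WT peak within 6 positions as nearest partner, each WT peak serving once. The *hmo1Δ* peak at 1410 lies 6 positions upstream of the WT peak at 1416. It was left unpaired, since that WT peak is the partner of the *hmo1Δ* peak at 1416. The *hmo1Δ* peak was at the same position in 8 pairs, downstream in 6 and upstream in 1, a count made after the peaks were seen. The downstream peaks of *hmo1Δ* were at 1378, 1491, 1576, 1692, 1813 and 1855, with WT partners at 1374, 1488, 1572, 1690, 1809 and 1850. Their distances were 4, 3, 4, 2, 4 and 5 nucleotides. The upstream one was at 1554, with a WT partner at 1559. In the rest of the gene 142 of 190 such pairs were at the same position, 32 were downstream and 16 upstream. Both neighbours of a pair could stand out in both strains. The medians of *hmo1Δ* and WT were 369 and 518 RPM at 1374, and 777 and 383 RPM at 1378. Position 1375 between them had only 96.8 and 170 RPM. The count of pairs thus cannot tell moved peaks from changed relative heights of peaks that both strains share. The pair 1855 and 1850 is given here because 1850 is among the lowest ratios to WT. Position 1855 had 515, 670 and 672 RPM in *hmo1Δ*, against 342 RPM in WT, and position 1850 had 152, 206 and 210 RPM in *hmo1Δ*, against 522 RPM in WT. Both lie in one of the well conserved sequences of small subunit rRNA.

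**Figure D3:**
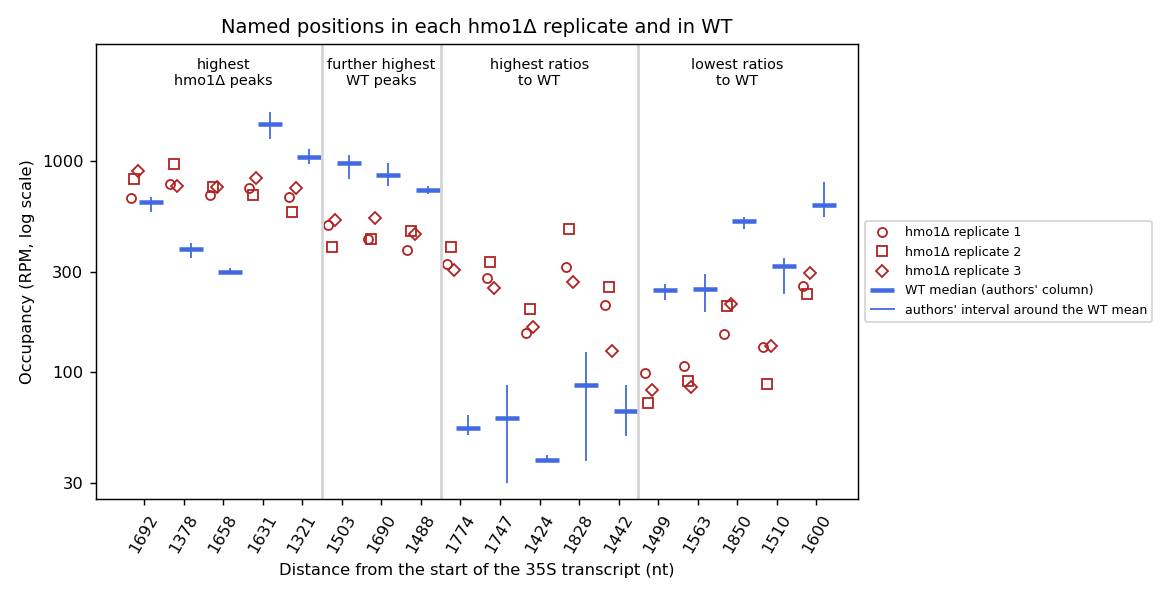
Occupancy (RPM, log scale) at the 18 named positions in each of 3 *hmo1Δ* replicates (red symbols, left of each pair) and in the authors' WT median (blue bars, with the authors' interval of 2 standard errors around the WT mean). Only position 1692 has a replicate inside the WT interval, at 668 RPM against an upper bound of 674 RPM.

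The highest ratios to WT were taken among positions with a mean of both medians of at least 100 RPM and every replicate above WT. Ranking by this ratio favours positions low in WT, and here the WT medians were 38.5 to 87.4 RPM. Position 1774 had 326, 392 and 304 RPM in *hmo1Δ* replicates 1, 2 and 3, against 54.3 RPM in WT, a fold of 5.99 and a log2 ratio of 2.56. Its neighbours 1771 and 1776 were at 4.84 and 4.98 times WT by the medians. These positions lie in the run from 1770 to 1779, where all 3 replicates were above WT at every position. Its mean was 143, 163 and 122 RPM in *hmo1Δ* and 42.3 RPM in WT, a log2 ratio of 1.74 ± 0.21 (SD, n = 3). Position 1747 had 279, 335 and 251 RPM in *hmo1Δ*, against 60.4 RPM in WT. Position 1424 had 153, 199 and 163 RPM in *hmo1Δ*, against 38.5 RPM in WT. Position 1828 had 317, 478 and 268 RPM in *hmo1Δ*, against 87.4 RPM in WT. In WT the authors' coefficient of variation was 3.34% at 1424 and 9.38% at 1774, but 42.5% at 1747 and 46.1% at 1828, so the WT level is less certain at the last 2. Position 1442 had 209, 253 and 126 RPM in *hmo1Δ*, against 65.6 RPM in WT, and its replicates spread most widely relative to their mean among these positions. Replicate 2 was the highest at all 5 positions. Every replicate was above the WT interval, which the choice of positions with every replicate above the WT median favours.

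Of the 5 lowest ratios, 4 lay between 1499 and 1600. Position 1499 had 98.9, 71.6 and 82.2 RPM in *hmo1Δ*, against 245 RPM in WT, a fold of 0.335 and a log2 ratio of -1.57. Its neighbours 1497 and 1501 were at 0.408 and 0.397 times WT. Position 1563 had 107, 90.7 and 85.4 RPM in *hmo1Δ*, against 247 RPM in WT, and its neighbours 1562 and 1566 were both at 0.380 times WT. These positions all lie in the 2 longest runs of positions with every replicate below WT. Position 1510 had 132, 88.2 and 133 RPM in *hmo1Δ* and 319 RPM in WT, and position 1600 had 258, 236 and 296 RPM in *hmo1Δ* and 618 RPM in WT. Position 1850 was the other of the 5. The choice of these positions required every replicate to be below WT.

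**Figure D4:**
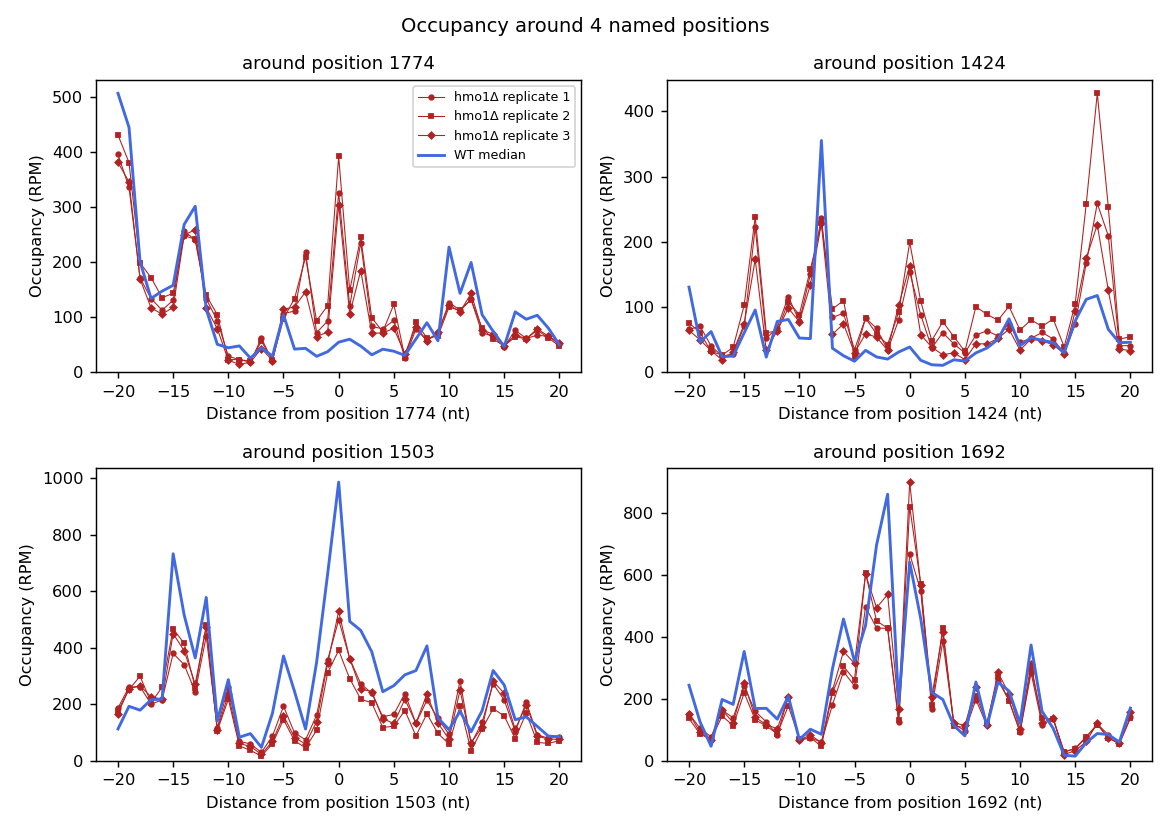
Occupancy (RPM) within 20 nucleotides of positions 1774, 1424, 1503 and 1692, with each *hmo1Δ* replicate as a red line and the authors' WT median as a blue line. The replicates follow each other at 1774 (304 to 392 RPM, WT 54.3 RPM) and at 1503 (391 to 528 RPM, WT 986 RPM), and at 1690 and 1692 the strains differ in which neighbour is higher.

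The run of positions with every replicate below WT was longest from 1538 to 1572, at 35 positions, which was also the longest such run in the gene. Its mean was 182, 158 and 172 RPM in *hmo1Δ* and 292 RPM in WT, a log2 ratio of -0.78 ± 0.11 (SD, n = 3). The next, from 1488 to 1513, had 26 positions, with 209, 182 and 207 RPM in *hmo1Δ* and 342 RPM in WT, a log2 ratio of -0.78 ± 0.11. On the other side the longest runs with every replicate above WT covered 16 positions, from 1417 to 1432, and 15 positions, from 1466 to 1480, where the longest such run in the gene covered 47. The first had a mean of 66.2, 80.9 and 55.2 RPM in *hmo1Δ*, against 26.0 RPM in WT, a log2 ratio of 1.36 ± 0.28 (SD, n = 3). The second had 223, 243 and 247 RPM in *hmo1Δ*, against 155 RPM in WT, a log2 ratio of 0.62 ± 0.08. The runs are shown in capitals with 10 nucleotides on either side, to set their base content side by side.
Below WT, positions 1538 to 1572, chrXII:465988-466042: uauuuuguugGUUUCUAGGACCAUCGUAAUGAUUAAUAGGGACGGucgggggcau
Below WT, positions 1488 to 1513, chrXII:466047-466092: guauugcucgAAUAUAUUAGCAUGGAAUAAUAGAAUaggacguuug
Below WT, positions 1614 to 1626, chrXII:465934-465966: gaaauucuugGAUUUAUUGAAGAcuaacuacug
Above WT, positions 1417 to 1432, chrXII:466128-466163: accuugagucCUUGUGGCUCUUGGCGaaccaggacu
Above WT, positions 1466 to 1480, chrXII:466080-466114: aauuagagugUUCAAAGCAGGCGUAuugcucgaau
Above WT, positions 1770 to 1779, chrXII:465781-465810: uaaugacccaCUCGGCACCUuacgagaaau
Above WT, positions 1353 to 1360, chrXII:466200-466227: gcccgguuggCCGGUCCGauuuuuucgu
The runs below WT were made up of 42.9%, 19.2% and 23.1% G and C, and the runs above WT of 62.5%, 46.7%, 70% and 87.5%, in the order printed. The stretch as a whole was 44.2% G and C. Of all the runs of 8 or more positions, the 6 above WT held 46.7% to 87.5% G and C and the 10 below WT 18.2% to 55.6%, so the ranges overlapped.

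The lowest troughs of *hmo1Δ* were less deep than those of WT, each strain taken at its own. The 3 lowest were at 60.3, 65.4 and 69.2 RPM in the *hmo1Δ* median and 32.0, 47.3 and 48.0 RPM in WT. At the same positions the change went both ways. The lowest mean over 20 positions was at 1419 to 1438 in *hmo1Δ*, with 59.9, 76.1 and 50.9 RPM in replicates 1, 2 and 3, against 32.7 RPM in WT at the same positions. In WT it was at 1417 to 1436, where *hmo1Δ* had 64.6, 80.5 and 54.0 RPM and WT 32.0 RPM. The strains thus shared their deepest trough, and all replicates were above WT there. The next WT trough, positions 1763 to 1782, had 97.0, 108 and 84.9 RPM in *hmo1Δ*, against 47.3 RPM in WT. It was not among the 3 lowest of *hmo1Δ*, which were instead joined by positions 1393 to 1412 (64.9 ± 6.93 RPM in *hmo1Δ*, SD, n = 3, and 59.7 RPM in WT) and 1780 to 1799 (69.4 ± 1.23 RPM and 88.0 RPM). Positions 1393 to 1412 had replicates on both sides of WT, and 1780 to 1799 was lower in *hmo1Δ*, with a log2 ratio of -0.34 ± 0.03 (SD, n = 3). The third WT trough, positions 1354 to 1373, had 69.5 ± 9.12 RPM in *hmo1Δ* (SD, n = 3), against 48.0 RPM in WT. Troughs picked in WT are by their choice low in WT, and those picked in *hmo1Δ* low in *hmo1Δ*.

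In windows of 50 positions the change alternated along the stretch. All 3 *hmo1Δ* replicates were below WT in 6 of 12 windows (50%, where 35% of 137 windows over the gene were) and above it in 3 (25%, and 46.7% over the gene). The first window, up to 1350, averaged 255, 221 and 252 RPM in *hmo1Δ* and 328 RPM in WT, a log2 ratio of -0.44 ± 0.11 (SD, n = 3). The next 2 were above WT, at 0.29 ± 0.17 and 0.46 ± 0.23. The other block below WT ran from 1501 to 1750. Its 3 windows that cover 1501 to 1650 were at -0.52 ± 0.16, -0.58 ± 0.08 and -0.37 ± 0.08. Windows 1651 to 1700 and 1701 to 1750 were nearer to WT, at -0.11 ± 0.07 and -0.10 ± 0.01. Window 1551 to 1600 was the lowest, with 182, 166 and 164 RPM in *hmo1Δ* and 255 RPM in WT, and window 1401 to 1450 the highest, with 81.5, 98.3 and 71.7 RPM in *hmo1Δ* and 60.6 RPM in WT. From 1651 on, the log2 ratios lay between -0.11 and 0.10. In 5 of the 6 windows up to 1650 with all replicates on one side, replicate 2 was the farthest from WT. The 4 windows below WT with -0.37 or less kept all replicates below WT under each of the 3 other scalings, and window 1401 to 1450 kept all above. The window from 1701 to 1750 was below WT as deposited and above it when scaled to 18S, and window 1751 to 1800 had replicates on both sides of WT when scaled to 25S or to the median position. So did window 1351 to 1400 when scaled to the median position and window 1651 to 1700 when scaled to 18S.

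**Figure D5:**
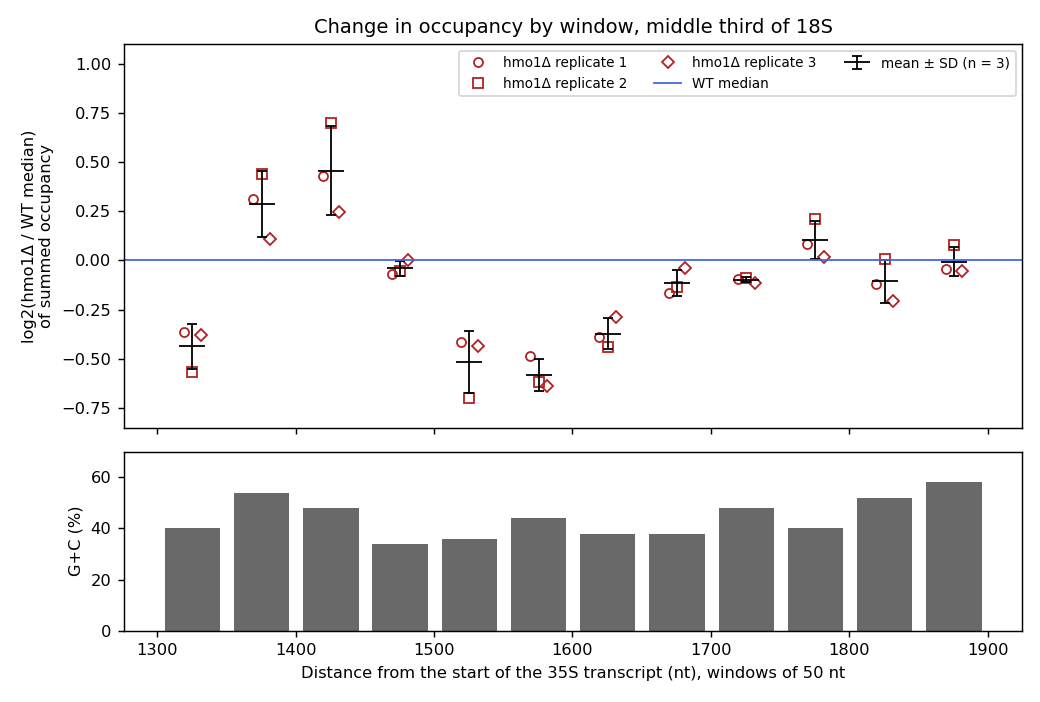
Upper panel, log2 ratio of summed occupancy in each *hmo1Δ* replicate (red symbols; black bars, mean ± SD, n = 3) to the authors' WT median (line at 0) in 12 windows of 50 positions; lower panel, share of G and C in each window (%). The windows from 1501 to 1650 lie between -0.58 and -0.37 and the windows from 1351 to 1450 at 0.29 and 0.46.

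Positions that end a stretch rich in G and C tended to be higher in *hmo1Δ* than in WT, and those that end one rich in A and U lower. Across the 600 positions, Pearson's r between the log2 ratio and the share of G in the 10 nucleotides ending at the position was 0.247, 0.320 and 0.281 in replicates 1, 2 and 3, and for C it was 0.313, 0.373 and 0.281. For A it was -0.247, -0.293 and -0.203, and for U -0.201, -0.264 and -0.251. G and C together, a sum taken after seeing the data, gave 0.405, 0.502 and 0.410. Over all mature rRNA positions of the gene the mean r was 0.258 for G, 0.050 for C and 0.271 for both. The points share libraries and most of their bases with their neighbours, so no *p*-value is given. Where G and C made up 20% or less of the 10 nucleotides, 71 of 93 positions had all 3 replicates below WT and 12 above. Where they made up 70% or more, 23 of 89 were below and 50 above. The log2 ratio of summed occupancy was -0.49 ± 0.13 (SD, n = 3) over the 93 positions and 0.36 ± 0.14 over the 89. For G alone, 18 of the 29 positions that end a stretch with 60% or more G had all 3 replicates above WT and 7 had all 3 below. Among all 600 positions 54.0% were below and 31.3% above, and over the gene 37.2% and 44.2%. Shares over the gene for the same base contents are not given here. Over the 12 windows of 50, r between the log2 ratio and the share of G and C was 0.459. The window 1851 to 1900, with the most G and C at 58.0%, had a log2 ratio of -0.01 ± 0.07.

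The base just before the position was more often G at the peaks of both strains than over all positions. It was G at 158 of 600 positions (26.3%), but at 13 of the 18 *hmo1Δ* peaks and 11 of the 17 WT peaks. Of the peaks printed above, 1378, 1503, 1658 and 1692 follow G. The highest WT peaks 1631 and 1321, also high in *hmo1Δ*, follow A, and 1690 follows U. In the rest of the gene it was G at 63.9% of *hmo1Δ* peaks and 54.3% of WT peaks, against 26.5% of positions. This count was made after the sequences were seen. Whether the deposited position is the last nucleotide added or the next one is not given in the sources used here, so the G is either the nucleotide before the RNA's last one or the last one itself. All pairs of bases before the position were compared, and the extremes are given. The share of positions with all 3 replicates above WT was highest after GC, and the share below was highest after UA. The order depends on the measure. By the log2 ratio of summed occupancy, AU (-0.573) was farther from WT than GC (0.495), and UA was at -0.594. After GC, 17 of 24 positions (70.8%) had all 3 replicates above WT and 5 (20.8%) had all 3 below, against 55.2% and 24.8% in the rest of the gene. After UA, 3 of 37 (8.11%) were above and 27 (73.0%) below, against 24.7% and 53.7% in the rest. After GG, where both strains had the highest occupancy relative to the local median (1.98 times in *hmo1Δ* and 1.69 times in WT), 30 of 55 (54.5%) were above and 17 (30.9%) below, against 60.5% and 22.9% in the rest of the gene.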

How the data were processed

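The 3 *hmo1Δ* NET-seq replicates were mapped to columns by strain and replicate number. Before deposit the authors collapsed duplicates by UMI (fqtrim), removed adaptors (cutadapt 3.4), mapped reads to R64 (STAR 2.7.1a), took the 3′ end per position (bedtools 2.28.0) and scaled it to RPM. Deposited score columns for WT hold the authors' coefficient of variation and interval; the WT median is deposited in RPM. The 3 single WT columns, of another series, were not used, nor were the authors' difference, ratio and *p*-value columns. Replicates held 3700345.5, 1984305 and 2810265 reads up to T1. Values were whole reads within 0.01 at 99.9% of positions or more. No count test was run on the reads, since only the *hmo1Δ* columns belong to samples of this series. Intervals and errors from reads cover counting only.

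Ratios were log2((RPM + 1)/(WT median + 1)) for positions and ratios of sums for stretches. Named positions were the 5 highest peaks of each strain and the 5 highest and lowest ratios with all replicates on that side and a mean of at least 100 RPM, where positions within 3 were merged. Members and rules were chosen with earlier results of these data known. Scripts ran under Python 3.11.15 with pandas 2.3.3, numpy 2.4.6, scipy 1.17.1 and matplotlib 3.10.9 and were tested on simulated profiles. Alternatives varied the scaling, the WT value, the pseudocount, window size, peak rule and base length, and left out each replicate.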

Additional observations from a re-analysis of the deposited data

How the results depend on the processing

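No paired analysis was possible because the samples used form 1 group. The summed log2 ratio of -0.20 became -0.045 when scaled to 18S, -0.21 when scaled to 25S and -0.35 when scaled to the median position of the gene, and it was between -0.20 and -0.19 with each replicate left out. Without the highest positions, or with the midpoint of the WT interval (chosen after seeing the data), it stayed within the spread between replicates. Scaled to 18S, 6 windows were above WT and the lowest window was at -0.43. Scaled to the median position, 1 window was above WT and the lowest was at -0.73. Windows of 100 positions gave 1 above and 3 below, with a highest log2 ratio of 0.10. Peaks at 2 times the local median numbered 30 in *hmo1Δ* and 31 in WT, with 15 shared, and at 4 times there were 10 in *hmo1Δ* with 5 shared. With peaks highest within only 3 positions, 15 were shared of 23 in *hmo1Δ* and 20 in WT, larger shares of each than the 9 of 18 and of 17 in the report; gene-wide shares were not computed under this rule. The 6 and 60 highest positions held 4.72% and 28.7% of *hmo1Δ* occupancy. Over 20 nucleotides, a length chosen after seeing the data, the mean r was 0.213 for G, 0.251 for C and -0.115 for U, and over 50 nucleotides 0.0995 for G and -0.120 for U. The Spearman coefficient between replicates ranged from 0.961 to 0.980 with each replicate left out. For the 18 named positions, 155 of 162 alternative log2 ratios moved by less than the spread between replicates, 7 moved by more and 0 changed sign. At the median position depth was less limiting than the spread between replicates. Counting errors there were 4.73% to 6.48%, against a median coefficient of variation of 9.999%. This need not hold at positions with few reads, the lowest of which had 24 in 1 replicate.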
